A study of Mus musculus with 11 samples.

Results

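The mitochondrial ribosomal protein genes are the nuclear genes whose symbols begin with Mrpl, for the large subunit of the mitochondrial ribosome, or Mrps, for the small subunit, followed by a number. All 75 genes of the count table with such a symbol were taken, 46 Mrpl and 29 Mrps genes, of 14602 genes in all. The libraries were made from RPE/choroid, the retinal pigment epithelium together with the vascular layer beneath it, of C57BL/6J mice. The laser treated group holds 5 libraries from mice that received the 2RT nanosecond laser when 9 months old, with tissue taken 3 months later, at 12 months. The study's methods name more laser treated samples for the sequencing than the labels do, and the labels were followed. The naïve control group holds 6 libraries from untreated mice collected at the same age. No genetic modification or drug is named for either group, and both groups share the strain, the age at collection and the removal of the neural retina from the eye cup. RNA was copied and amplified before library preparation with a SmartSeq v4 kit, and the authors deposited raw counts per gene.

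The mitochondrial ribosome translates the few messages that the mitochondrial genome encodes, all of them core subunits of the respiratory chain and the ATP synthase. Its RNA is encoded in the mitochondrion, but every one of its proteins is encoded in the nucleus, made by cytosolic ribosomes and imported. Some of these proteins have counterparts in the bacterial ribosome, and others were added during the evolution of mitochondria. The retinal pigment epithelium is a postmitotic, pigmented layer with a high demand for mitochondrial respiration, since it feeds and clears the photoreceptors that lie on it.

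Total counts ranged from 25700881 to 36766020 in the naïve control and from 32094560 to 38755994 in the laser treated libraries. All 12 RPE markers were in the table, and their summed level ranged from 42455 to 51442 CPM (counts per 1000000 counts of the library, scaled by TMM) in the naïve control and from 31165 to 57186 CPM in the laser treated libraries. Photoreceptor markers of the neural retina were also present, with sums of 6084 to 21942 CPM in naïve control and 4059 to 19408 CPM in laser treated libraries. Sums of skeletal muscle markers were 24.1 to 326 CPM and 37.9 to 459.5 CPM, and those of blood markers 48.1 to 326 CPM and 37.2 to 159 CPM, in the same order. Those of Schwann cell markers were 293.6 to 529 CPM and 395.5 to 1104 CPM, and 2 of the 3 such markers in the table had an unadjusted p under 0.05. Marker sums of 8 cell types overlapped between the groups in every case, and their part in the results below was not tested. In bulk tissue, fewer cells of a type and less RNA per cell cannot be told apart.

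Promoters are shown first for 4 members on which the results turn. Mrps18c had the most negative log2 fold change, Mrpl18 the smallest p, and Mrpl10 was the one member higher after laser at an unadjusted p under 0.05. Mrps18a is a paralog of Mrps18c whose level was close to equal in the groups. The 250 bases before the RefSeq transcription start are given 5′ to 3′ on the strand of the gene, on GRCm38.p6. Gene positions and distances between genes given elsewhere use GENCODE M21, whose starts differ. By those starts, the whole window of Mrpl18 and part of the windows of Mrps18c, Mrpl10 and Mrps18a lie inside the gene. Capitals mark the letters GCATGCGC of nuclear respiratory factor 1, CCGGAAGT or CCGGAA of ETS factors such as GABP, and AAGATGGCG or AAGATGG of YY1, on either strand. The longer ETS and YY1 words contain the shorter ones. The windows lie at chr5:100798509-100798758 on the plus strand for Mrps18c, chr17:12916092-12916341 on the minus strand for Mrpl18, chr11:97041332-97041581 on the plus strand for Mrpl10 and chr17:46110754-46111003 on the plus strand for Mrps18a.
Mrps18c: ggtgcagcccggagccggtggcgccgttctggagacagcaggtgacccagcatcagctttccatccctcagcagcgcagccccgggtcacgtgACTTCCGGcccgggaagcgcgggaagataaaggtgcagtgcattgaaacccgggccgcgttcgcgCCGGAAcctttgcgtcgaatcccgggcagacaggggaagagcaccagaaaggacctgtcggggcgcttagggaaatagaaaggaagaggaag
Mrpl18: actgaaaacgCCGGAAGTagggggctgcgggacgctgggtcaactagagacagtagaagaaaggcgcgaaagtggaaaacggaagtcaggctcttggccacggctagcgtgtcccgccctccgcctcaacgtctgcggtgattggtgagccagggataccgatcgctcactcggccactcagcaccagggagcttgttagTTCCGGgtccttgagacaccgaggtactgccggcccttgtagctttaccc
Mrpl10: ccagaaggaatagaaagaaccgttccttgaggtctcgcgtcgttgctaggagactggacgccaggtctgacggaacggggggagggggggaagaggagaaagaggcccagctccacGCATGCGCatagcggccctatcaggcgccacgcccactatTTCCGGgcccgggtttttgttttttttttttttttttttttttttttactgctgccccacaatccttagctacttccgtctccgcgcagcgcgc
Mrps18a: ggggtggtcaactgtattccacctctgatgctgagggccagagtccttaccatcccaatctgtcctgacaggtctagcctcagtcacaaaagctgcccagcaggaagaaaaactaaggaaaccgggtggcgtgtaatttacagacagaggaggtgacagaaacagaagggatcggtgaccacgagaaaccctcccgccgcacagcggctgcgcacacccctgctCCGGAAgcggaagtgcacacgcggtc

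The windows of Mrps18c and Mrpl18 each hold CCGGAAGT and one further CCGGAA. The window of Mrpl10 holds GCATGCGC and CCGGAA, and that of Mrps18a holds CCGGAA. Promoters of 300 bases, 250 before and 50 after the start, were given for 66 of the 75 members. CCGGAA was present in 38 of these 66 members, or 57.6%, against 14.9% of all 32851 promoters and 28.7% of the genes of the count table that had one. CCGGAAGT was present in 12 members, or 18.2%, against 3.89% of all promoters and 8.21% of the genes of the table. GCATGCGC was present in 8 members, or 12.1%, against 2.71% of all promoters and 5.63% of the genes of the table. AAGATGGCG was present in 7 members, or 10.6%, against 1.40% of all promoters and 3.17% of the genes of the table. AAGATGG was present in 12 members, or 18.2%, against 6.34% and 7.76%. Members and genes of the table were counted once each, with the word in any of their promoters, so their shares are the ones counted alike. These words are matches of letters, not measured sites of binding.

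Many members lie beside another gene that starts in the opposite direction. Of the 75 members, 32 had a gene of the count table on the other strand with its annotated start within 1 kb, or 42.7%, against 16.5% of the 14252 genes that could be placed on the genome. Mrps11 and Mrpl46, proteins of different subunits, form such a pair on chromosome 7, at chr7:78783119-78792989 and chr7:78775236-78783531, and share 173 bases of exon on opposite strands. Their log2 fold changes were -0.24 and -0.21, at unadjusted p of 0.154 and 0.223. Mrps18c starts 29 bases from Helq, and Mrpl32 starts 75 bases from the proteasome gene Psma2. The strand setting of the counting is not given in the sources used here, so reads of overlapping partners cannot be told apart where exons overlap. Exons of 31 members overlap another gene, and in 6 of them over at least 30% of the exon bases. Mrps18c overlaps Gm43511, on the same strand, over 23.2% of its exon bases. Mrpl18 overlaps Tcp1 over 10.1% and Mrpl10 overlaps Gm11574 over 14.05%, both on the opposite strand.

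All 75 members passed the expression filter, as every gene of the table did. The lowest count of any member in any library was 97, for Mrps18b. Laser treated and naïve control libraries were compared gene by gene with edgeR's quasi-likelihood test, and p-values were adjusted over the 14602 genes (Benjamini-Hochberg). No member had an adjusted p under 0.05, and neither did any other gene, so the share called was 0%. At an unadjusted p under 0.05, 15 of the 75 members were lower after laser, where 7.68% of all genes were, and 1 member was higher, where 8.24% of all genes were. The 15 lower members were 10 of the 46 Mrpl and 5 of the 29 Mrps genes, and the higher one was an Mrpl gene. With DESeq2, which gave an adjusted p for 68 members, 3 members had one under 0.05, against 6.68% of the 7512 genes with a value. These were Mrpl18, Mrps14 and Mrps18c, with DESeq2 adjusted p of 0.0179, 0.0179 and 0.0232.

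The direction was shared by most members. The fitted log2 fold change was below 0 in 65 of the 75 members, or 86.7%, against 51.5% of all genes. The median over the members was -0.26, with values from -1.03 to 0.40 and a middle range from -0.39 to -0.10. The median over all genes was -0.02, with a middle range from -0.35 to 0.30. The groups overlapped in every member, so 0 of 75 separated the groups library by library, against 2.26% of all genes. The plot of fitted changes shows both subunits shifted to the left of the all-gene median with a few members to its right.

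**Figure D1:**
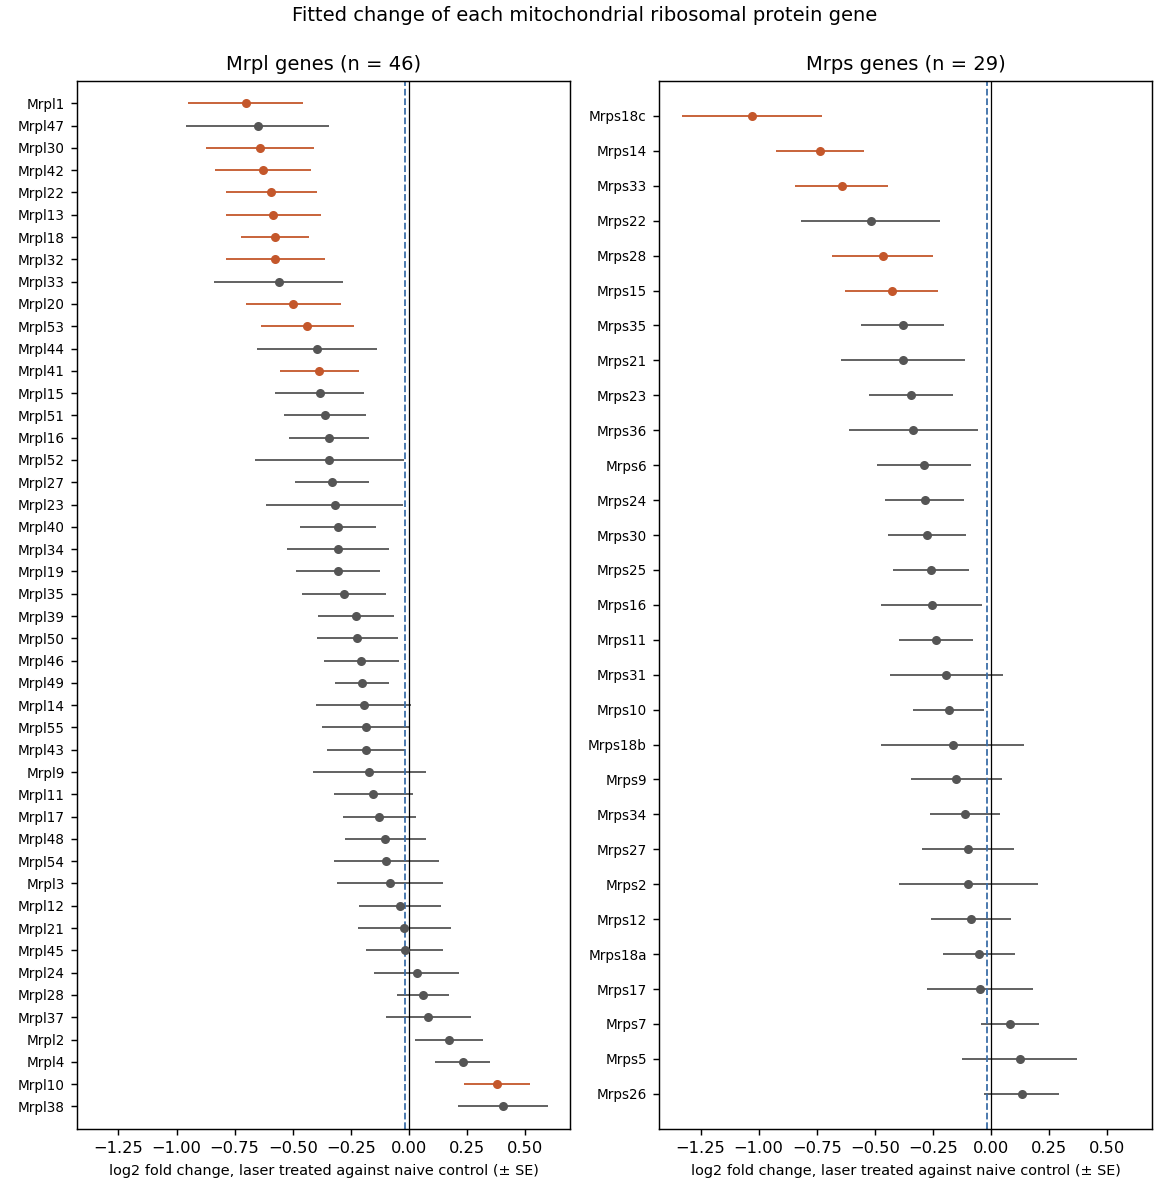
Log2 fold change of laser treated (n = 5) against naïve control (n = 6) libraries for each Mrpl and Mrps gene, with its standard error as a bar. Orange marks an unadjusted p under 0.05, the solid line is 0 and the dashed line is the median of all genes at -0.02. Of 75 members, 65 lie below 0, and the lowest is Mrps18c at -1.03.

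Small and large subunit genes had medians that lay close together. The median log2 fold change was -0.25 over the 46 Mrpl genes, of which 39 were below 0, and -0.26 over the 29 Mrps genes, of which 26 were below 0. The Mrpl values ran from -0.70 to 0.40 and the Mrps values from -1.03 to 0.13. Symbols do not always give the place of a protein, since Mrps30 and Mrps18a sit in the large subunit and Mrps36 is a component of the 2-oxoglutarate dehydrogenase complex. Sorted by place, the medians were -0.25 over 48 large subunit and -0.25 over 26 small subunit genes. The medians also lay close together when members were split by origin, a split made after the values were seen. The 47 members with a bacterial counterpart had a median of -0.26 and the 27 found in mitochondrial ribosomes alone a median of -0.23.

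The summed level of the members was lower in most laser treated libraries. Levels between genes were made comparable by dividing CPM by the length of the longest curated transcript in kilobases. The Mrpl sum was 1993 ± 197 CPM per kilobase (SD, n = 6) without and 1603 ± 348 (SD, n = 5) with laser treatment. The Mrps sum was 1359 ± 129 and 1072 ± 278 CPM per kilobase, in the same order. In the laser treated libraries, replicates 1 to 5 had Mrpl sums of 1799, 1505, 1438, 1185 and 2089 CPM per kilobase and Mrps sums of 1317, 989, 930.2, 729.7 and 1397. Naïve control Mrpl sums ran from 1692 over a median of 1992 to 2216, and Mrps sums from 1141 over 1395 to 1487. Laser treated replicates 2, 3 and 4 lay below every naïve control library in both sums, and replicates 1 and 5 lay inside the control range.

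The share of the sum held by the small subunit depended on how the genes were assigned. Split by symbol, Mrps genes held 40.6% ± 0.918 (SD, n = 6) of the summed per-length level without and 39.9% ± 1.52 (SD, n = 5) with laser treatment. That difference was smaller than either SD. The share ran from 39.4% to 42.0% in naïve control libraries. It was 42.3%, 39.6%, 39.3%, 38.1% and 40.1% in laser treated replicates 1 to 5, and the groups overlapped. The lowest share, in replicate 4, came from the library with the lowest sums, and the highest, in replicate 1, from a library inside the control range. Split by place in the ribosome, small subunit genes held 35.6% ± 0.896 (SD, n = 6) without and 34.1% ± 1.36 (SD, n = 5) with laser treatment, a difference larger than either SD. By this split the share was 36.2%, 33.8%, 33.2%, 32.7% and 34.6% in laser treated replicates 1 to 5 and ran from 34.6% to 36.7% in naïve control libraries. Replicates 2, 3 and 4 lay below every control library and replicates 1 and 5 inside the control range, so the groups overlapped by both splits. Neither difference was tested.

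**Figure D2:**
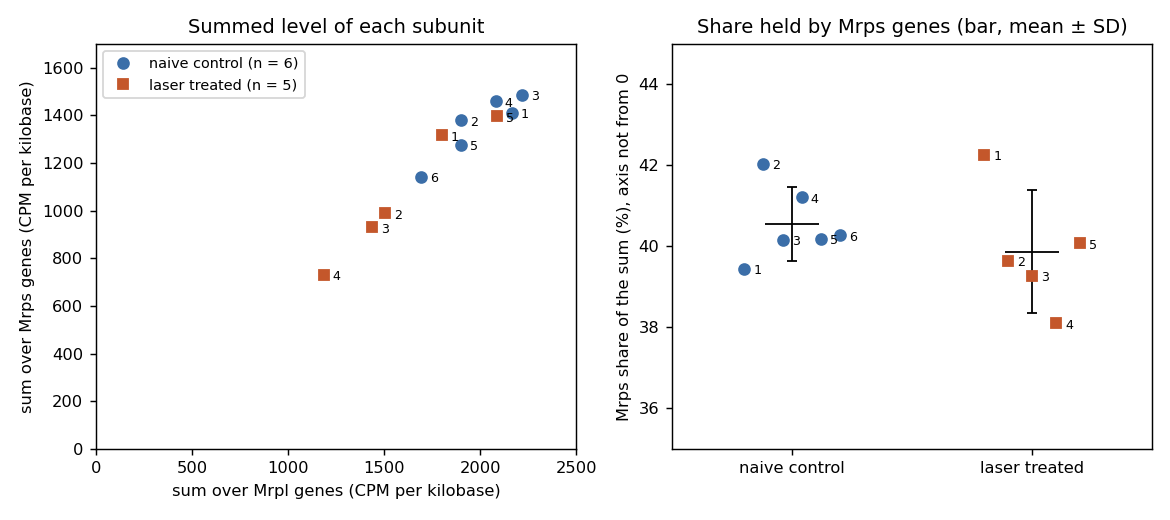
Left, summed level of the Mrpl genes against that of the Mrps genes in each library, in CPM per kilobase, with replicate numbers. Right, the share of the sum held by Mrps genes, with mean ± SD (naïve control n = 6, laser treated n = 5; the axis does not start at 0). The libraries lie along 1 line through both groups, with laser treated replicates 2, 3 and 4 at its lower end, and the shares of the groups, split by symbol, overlap.

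The same few libraries stood at the ends for many members. Laser treated replicate 4 was the lowest of all 11 libraries in 47 of the 75 members, and the lowest of its own group in 55. Laser treated replicate 5 was the highest of its group in 38 members and the highest of all 11 libraries in 16. Naïve control replicate 6 was the lowest of its group in 28 members. The median over members of the log2 level, centred on each gene's mean, was -0.50 in laser treated replicate 4, 0.16 in laser treated replicate 5 and -0.06 in naïve control replicate 6. The same median over the cytosolic ribosomal protein genes was -0.70, 0.53 and -0.34 in these 3 libraries. Laser treated replicate 4 also had the lowest sum of RPE markers, 31165 CPM, and a neural retina sum of 19408 CPM. Naïve control replicate 3 had a neural retina sum of 21942 CPM and a member median of 0.27. The part of these markers in the member values was not tested.

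The count of lower members depended on which library was in the fit. Without laser treated replicate 5, 28 members were lower at an unadjusted p under 0.05, where 8.79% of all genes were. Without naïve control replicate 6, 20 members were, beside 9.71% of all genes, and without laser treated replicate 1, 20 members, beside 8.13%. Leaving out any other library gave 10 to 15. The median over the members stayed below 0 in each of these 11 fits, and was nearest to 0, at -0.19, without laser treated replicate 4.

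**Figure D3:**
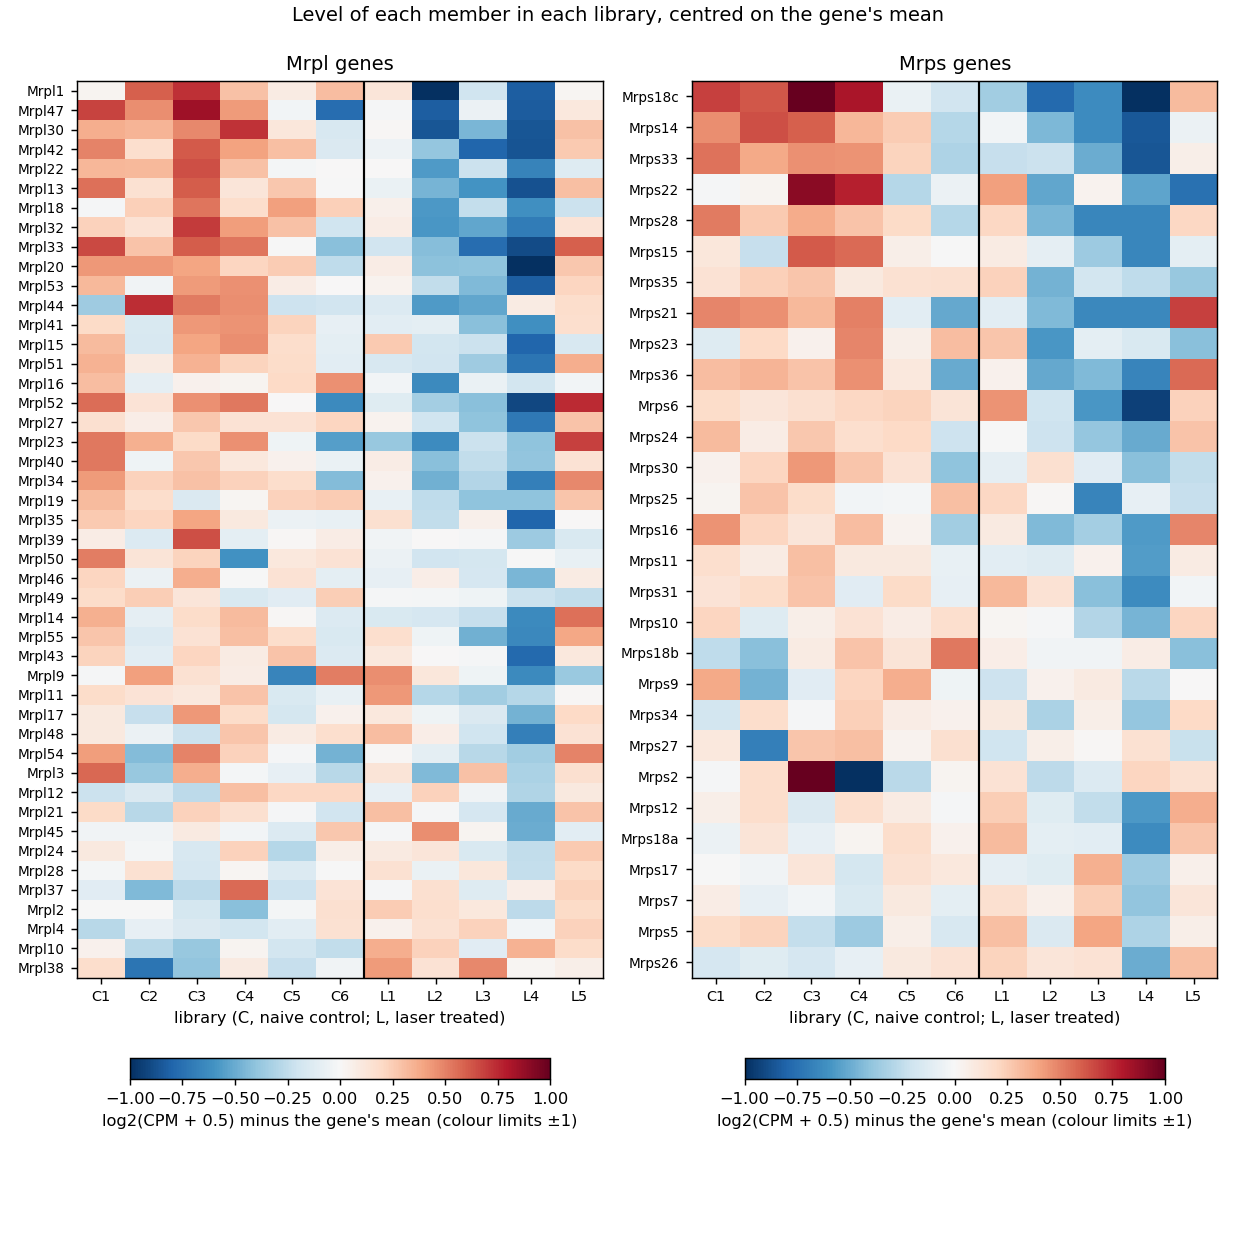
Log2(CPM + 0.5) of each Mrpl and Mrps gene in each library minus the mean of the gene, ordered by log2 fold change, with C1 to C6 the naïve control and L1 to L5 the laser treated replicates. L4 is the lowest library in 47 of 75 members, and L5 is the highest laser treated library in 38.

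The deposited transcript files carry a label, R1 or R2, whose meaning is not given. R1 marks 3 naïve control and 2 laser treated libraries, and R2 marks 3 of each. Within R1 the median over the members was -0.22, with 54 of 75 below 0 and 11 lower at an unadjusted p under 0.05, where 9.49% of all genes were. Within R2 it was -0.21, with 62 below 0. There 2 members were lower at that threshold, near the background of 3.28% of all genes. The Mrpl and Mrps medians were -0.26 and -0.12 within R1 and -0.19 and -0.22 within R2. Both labels thus had medians below 0, and the order of the subunits differed between them.

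Among large subunit genes, Mrpl18 had the smallest p. Mrpl18, at chr17:12911349-12916345, encodes a protein that in bacteria contacts the small ribosomal RNA of the large subunit. Its level ran from 95.9 over a median of 114 to 140.5 CPM in naïve control libraries and was 100.1, 64.6, 81.9, 63.2 and 83.3 CPM in laser treated replicates 1 to 5. Of the laser treated libraries, 4 of 5 lay below every naïve control library, and replicate 1 lay just above the lowest of them. The log2 fold change was -0.58 ± 0.15 (SE), with an unadjusted p of 0.00152 and an adjusted p of 0.172 in edgeR's quasi-likelihood test. It was -0.48 within R1 and -0.61 within R2.

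Mrpl42 is specific to mitochondrial ribosomes and was the most abundant Mrpl gene per length, at 210.1 CPM per kilobase. Its level ran from 121 over 169.8 to 203 CPM in naïve control libraries and was 128, 102, 76.6, 72.7 and 159.7 CPM in laser treated replicates 1 to 5. Replicates 2 to 4 lay below the control range and replicates 1 and 5 inside it. This gave a log2 fold change of -0.63 ± 0.21 (SE), with an edgeR adjusted p of 0.195.

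Mrpl22 encodes a protein whose bacterial counterpart lines the exit tunnel for the nascent chain. Its level ran from 18.1 over 22.8 to 28.9 CPM in naïve control libraries and was 18.3, 12.2, 15.7, 11.3 and 16.7 CPM in laser treated replicates 1 to 5. Only replicate 1 reached the control range. Its log2 fold change was -0.59 ± 0.20 (SE), with an edgeR adjusted p of 0.199.

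Mrpl13 and Mrpl1 completed the 5 Mrpl genes with the smallest p. Mrpl1 encodes the protein of the mobile stalk near the site where spent transfer RNA leaves. It ran from 24.3 over 29.5 to 39.8 CPM in naïve control libraries and was 26.1, 10.4, 20.7, 13.2 and 24.2 CPM in laser treated replicates 1 to 5. Mrpl13 was 66.6, 50.4, 45.9, 38.0 and 86.0 CPM in laser treated replicates 1 to 5, beside 69.4 over 80.8 to 106 CPM in naïve control libraries. In both genes 4 of 5 laser treated libraries lay below the control range, with Mrpl1 higher in replicate 1 and Mrpl13 in replicate 5. The log2 fold changes were -0.70 ± 0.25 and -0.58 ± 0.20 (SE), with edgeR adjusted p of 0.214 and 0.210.

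A small number of large subunit genes went the other way. Mrpl10 encodes the base of the stalk that recruits translation factors to the ribosome. It ran from 30.7 over 34.6 to 41.3 CPM in naïve control libraries and was 51.8, 47.2, 37.2, 51.2 and 45.8 CPM in laser treated replicates 1 to 5. Replicate 3 lay inside the control range and the other laser treated libraries above it. Its log2 fold change was 0.38 ± 0.14 (SE), with an unadjusted p of 0.0183 and an edgeR adjusted p of 0.225. Mrpl38, specific to mitochondrial ribosomes, had the most positive log2 fold change, 0.40 ± 0.19 (SE), with an edgeR adjusted p of 0.333. Its levels were 13.3 over 20.4 to 25.3 CPM in naïve control libraries and 30.1, 24.8, 31.3, 22.6 and 23.3 CPM in laser treated libraries.

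The other large subunit genes with high or low levels had these values. Mrpl20 was the second most abundant Mrpl gene, at 147 CPM per kilobase, with a log2 fold change of -0.50 ± 0.21 (SE) and an edgeR adjusted p of 0.261. Mrpl27, whose bacterial counterpart reaches toward the catalytic centre, was the next at 101 CPM per kilobase, with -0.33 ± 0.16 (SE). Mrpl27 was narrow in the naïve control libraries, at 84.5 ± 4.10 CPM (SD, n = 6), and wide in the laser treated ones, at 67.2 ± 17.7 CPM (SD, n = 5). The lowest Mrpl genes were Mrpl19, at 3.98 CPM per kilobase, and Mrpl47, at 4.47. Exons of Mrpl19 overlap the gene Gcfc2 on the other strand over 36.0% of their bases. Mrpl43, which is on the array of age-related genes used in the study, was 55.3 ± 6.78 CPM (SD, n = 6) and 48.7 ± 10.7 CPM (SD, n = 5), with a log2 fold change of -0.19 ± 0.17 (SE) and an edgeR adjusted p of 0.661. Exons of Mrpl43 overlap the gene Twnk on the other strand over 33.4% of their bases.

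**Figure D4:**
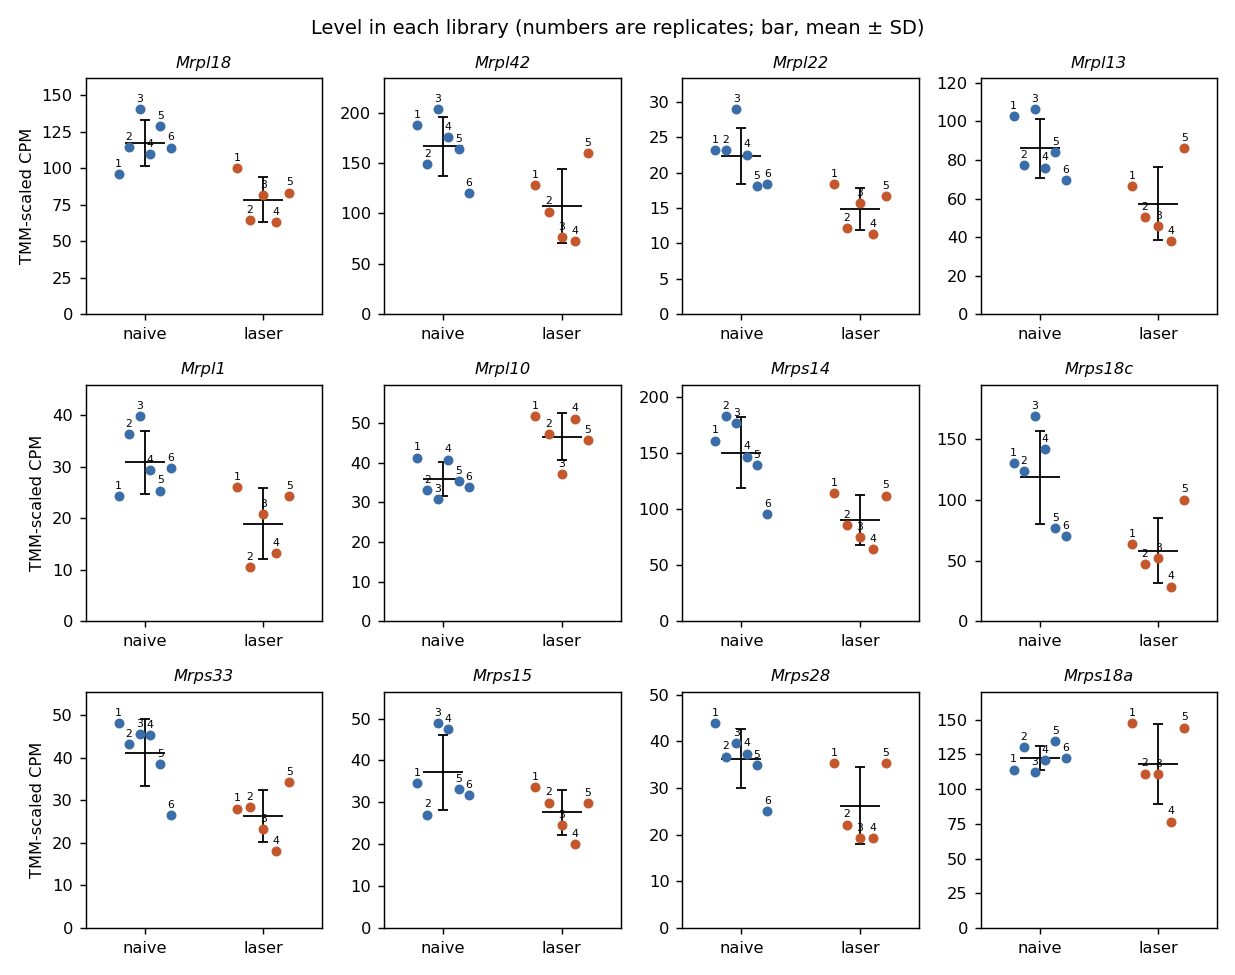
TMM-scaled CPM in each naïve control (blue, n = 6) and laser treated (orange, n = 5) library for the 5 Mrpl and 5 Mrps genes with the smallest p, Mrpl10 and Mrps18a; numbers are replicates and bars are mean ± SD. Each axis starts at 0. Laser treated replicate 4 is at or near the bottom in most panels, and Mrpl10 is the panel with the laser treated libraries mostly on top.

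Among small subunit genes, Mrps14 had the smallest p. Mrps14, at chr1:160195215-160202170, encodes a protein of the head of the small subunit. Its level ran from 95.6 over 154 to 183 CPM in naïve control libraries and was 114, 85.3, 75.1, 64.5 and 112 CPM in laser treated replicates 1 to 5. Naïve control replicate 6 was the lowest control, and the other 5 control libraries lay above every laser treated library. The log2 fold change was -0.74 ± 0.19 (SE), with an unadjusted p of 0.00184 and an adjusted p of 0.172 in edgeR's quasi-likelihood test. It was -0.77 within R1 and -0.58 within R2.

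The 3 paralogs of the bacterial protein S18 differed in level and in change. Mrps18c, at chr5:100798627-100804471, encodes the paralog that takes the place of the bacterial protein in the small subunit. It ran from 70.4 over 127 to 169 CPM in naïve control libraries and was 63.3, 46.9, 52.0, 28.5 and 100.3 CPM in laser treated replicates 1 to 5. Of the laser treated libraries, 4 lay below the control range and replicate 5 inside it. The log2 fold change was -1.03 ± 0.30 (SE), with an unadjusted p of 0.00433 and an adjusted p of 0.177 in edgeR's quasi-likelihood test. It was -1.33 within R1 and -0.66 within R2.

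Mrps18a, the paralog of the large subunit, was 122 ± 8.82 CPM (SD, n = 6) and 118 ± 29.2 CPM (SD, n = 5), with a log2 fold change of -0.05 ± 0.15 (SE). Its laser treated values were 148, 111, 111, 76.6 and 144 CPM, around a control range from 112 to 135 CPM. Mrps18b, a second small subunit paralog, was 5.82 ± 1.49 CPM (SD, n = 6) and 5.19 ± 0.732 CPM (SD, n = 5), with a log2 fold change of -0.17 ± 0.31 (SE). Per length, Mrps18c and Mrps18a stood at 143 and 136 CPM per kilobase and Mrps18b at 5.13. An antisense gene overlaps 30.5% of the exon bases of Mrps18b. The difference in change between the paralogs was not tested.

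Mrps33, Mrps15 and Mrps28 followed by p. Mrps33, specific to mitochondrial ribosomes, ran from 26.5 over 44.2 to 48.2 CPM in naïve control libraries and was 28.0, 28.4, 23.2, 18.0 and 34.3 CPM in laser treated replicates 1 to 5. Naïve control replicate 6 was the only control library below the highest laser treated one. The log2 fold change of Mrps33 was -0.64 ± 0.20 (SE), with an edgeR adjusted p of 0.181. Mrps15, whose bacterial counterpart binds the ribosomal RNA early in assembly, had -0.43 ± 0.20 (SE) and an edgeR adjusted p of 0.312. Mrps28 had -0.47 ± 0.22 (SE) and an edgeR adjusted p of 0.313. In both Mrps15 and Mrps28 at least 1 laser treated library lay inside the control range.

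The remaining small subunit genes had p over 0.05. Mrps6, whose bacterial counterpart pairs with S18, was the most abundant member, at 289 CPM per kilobase. It stayed between 258 and 277 CPM in all 6 naïve control libraries but was 325, 207, 158, 124 and 279 CPM in laser treated replicates 1 to 5. Its log2 fold change was -0.29 ± 0.20 (SE), with an edgeR adjusted p of 0.539. Exons of Mrps6 overlap those of Slc5a3, an osmolyte transporter on the same strand, over 10.4% of their bases. They also overlap those of Gm49711, on the same strand, over 19.9%. Mrps35 was also narrow in the controls, at 18.6 ± 0.891 CPM (SD, n = 6), and was 14.3 ± 2.98 CPM (SD, n = 5) after laser, with a log2 fold change of -0.38 ± 0.18 (SE).

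The most positive Mrps genes were close to 0. Mrps26 had a log2 fold change of 0.13 ± 0.16 (SE) and Mrps5, a protein tied to decoding accuracy in bacteria, 0.12 ± 0.25 (SE). Mrps5 was also the lowest member per length, at 1.93 CPM per kilobase, and Mrps35 the next among Mrps genes, at 3.99. Levels of the members spanned from 1.93 to 289 CPM per kilobase. The longest curated transcript was used for each gene, so the level per length of a gene that uses a shorter transcript is understated. Mrps30 was 43.1 ± 7.98 CPM (SD, n = 6) and 35.6 ± 5.35 CPM (SD, n = 5), and Mrps36 was 14.3 ± 3.04 CPM and 11.3 ± 4.53 CPM, in the same order.

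The values were also set beside transcript length and base composition. The rank correlation of the log2 fold change with transcript length was 0.03 over 14252 genes and 0.23 over the 75 members. The member medians below did not follow length in order. The all-gene medians did, from -0.33 under 1 kb to -0.01 and 0.02 in the 2 longer classes. Of the 24 members with transcripts under 1 kb, all 24 were below 0, with a median of -0.34, and the median of all 1010 genes of that length was -0.33. Of the 29 members from 1 to 2 kb, 21 were below 0, with a median of -0.17 beside -0.01 for all genes. Of the 22 members of 2 kb and longer, 20 were below 0, with a median of -0.26 beside 0.02 for all genes. The median of the short members lay beside that of all short genes, and the median of the long members lay below that of all long genes.

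GC content ran with the change across all genes, with a rank correlation of 0.47 over 14252 genes, and of 0.38 over the 75 members. These correlations are across genes of the same 11 libraries and carry no p. The 10 members under 45% GC had a median of -0.32 and all genes of that class -0.31. The 26 members from 45% to 50% GC had a median of -0.26 where all genes had -0.13. The 22 members from 50% to 55% GC had a median of -0.32 where all genes had 0.11. The 17 members of 55% GC and more had a median of -0.09 where all genes had 0.28.

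When a loess trend on GC content was removed from each library, the median over the members was -0.28, and 20 members were lower and 0 higher at an unadjusted p under 0.05, beside 4.63% and 3.68% of all genes. When a trend on transcript length was removed, the median was -0.10, with 47 of 75 members below 0, and 11 members were lower and 6 higher at that threshold, beside 6.58% and 9.55% of all genes. The 6 higher members were thus no larger a share than that of all genes. In that fit the median was -0.10 over the Mrpl and -0.07 over the Mrps genes. When both trends were removed together, a fit added after the data were seen, the median was -0.10, with 51 of 75 below 0, 7 lower and 1 higher, beside 3.4% and 2.9% of all genes. The all-gene medians in these 3 fits were 0.00, 0.04 and 0.00. Mrpl18, Mrps18c, Mrps14, Mrpl13 and Mrpl30 were the 5 members with an unadjusted p under 0.05 in each of the 3. Their log2 fold changes were -0.39, -0.48, -0.38, -0.48 and -0.33 when both trends were removed. Of the 15 members lower without trend removal, all 15 kept their direction in that fit, and 5 kept an unadjusted p under 0.05. Mrpl42, Mrpl22 and Mrps33 moved nearer to 0 there, to -0.06, -0.12 and -0.15. Mrpl1, Mrps15 and Mrps28 were -0.43, -0.26 and -0.25. Mrpl30 changed sign under other alternatives, given in the closing section.

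**Figure D5:**
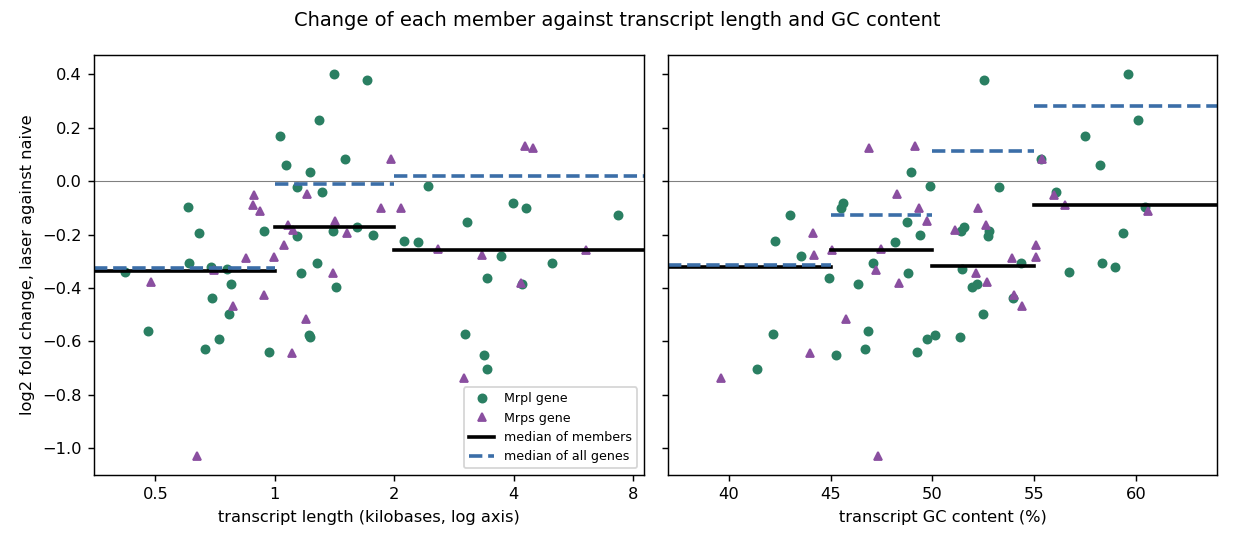
Log2 fold change of each Mrpl (green circles) and Mrps (purple triangles) gene against transcript length in kilobases on a log axis (left) and transcript GC content in percent (right). Solid lines are medians of the members and dashed lines medians of all genes in each class of length or GC; under 1 kb and under 45% GC the lines lie together, at -0.34 and -0.33 and at -0.32 and -0.31.

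In the lists of other genes of mitochondrial translation, smaller shares were below 0 before any trend was removed. Of 7 further proteins of the mitochondrial ribosome that carry other symbols, 3 were below 0, and the median was 0.06. Their median transcript was 2538 bases long, against 1226 bases for the members. With GC and length trends removed, 5 of the 7 were below 0, beside 51 of the 75 members. The medians were then -0.04 and -0.10. Chchd1, a small subunit protein with the highest level per length of these, was 72.2 ± 12.5 CPM (SD, n = 6) and 45.6 ± 18.5 CPM (SD, n = 5), with a log2 fold change of -0.66 ± 0.23 (SE) and an edgeR adjusted p of 0.211. Its log2 fold change was -0.15 with both trends removed. Mrp63, an older symbol of a large subunit protein that the naming rule leaves out, had -0.66 ± 0.22 (SE) and an edgeR adjusted p of 0.196. Of 28 assembly factors, GTPases and enzymes that modify the ribosomal RNA, 11 were below 0, and also 11 with both trends removed. At an unadjusted p under 0.05, 0 of the 28 were lower and 2 higher, beside 7.68% and 8.24% of all genes. Eral1, a chaperone of the small ribosomal RNA, had the smallest p of these, with 0.39 ± 0.16 (SE) and an edgeR adjusted p of 0.271. C1qbp, the most abundant per length, had -0.25 ± 0.13 (SE). Eral1 had 0.22 and C1qbp -0.15 with both trends removed.

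Of 13 translation factors, 6 were below 0, or 4 with both trends removed, and the median was 0.10 before trend removal. Under an unadjusted p of 0.05, 0 of the 13 were lower and 1 higher, beside 7.68% and 8.24% of all genes. Tufm, the elongation factor that brings transfer RNA to the ribosome, had the smallest p and the highest level per length of these. It was 40.2 ± 4.77 CPM (SD, n = 6) and 58.5 ± 4.77 CPM (SD, n = 5), with no overlap between the groups, as in 2.26% of all genes. This gave a log2 fold change of 0.54 ± 0.13 (SE), with an unadjusted p of 0.000861 and an edgeR adjusted p of 0.172. It was 0.61 within R1, 0.51 within R2 and 0.32 with the GC and length trends removed. Of 19 mitochondrial transfer RNA synthetases and related enzymes, 8 were below 0, or 7 with both trends removed. At an unadjusted p under 0.05, 0 of the 19 were lower and 2 higher, beside 7.68% and 8.24% of all genes. Aars2, for alanine, had the smallest p of these, with 0.75 ± 0.26 (SE) and an edgeR adjusted p of 0.210, and Lars2, for leucine, was the most abundant per length, with -0.11 ± 0.12 (SE). Aars2 had 0.31 and Lars2 -0.24 with both trends removed.

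Genes that regulate or carry out transcription for mitochondria numbered 13. Of these, 1 was lower and 2 were higher at an unadjusted p under 0.05, beside 7.68% and 8.24% of all genes. The lower one was Tfam, which packages mitochondrial DNA and starts its transcription, with -0.47 ± 0.19 (SE) and an edgeR adjusted p of 0.252. The higher ones were Polrmt, the mitochondrial RNA polymerase, with 0.79 ± 0.25 (SE) and an edgeR adjusted p of 0.185, and Esrra, a nuclear receptor, with 0.44 ± 0.18 (SE) and an edgeR adjusted p of 0.264. GC content was 44.9% in Tfam, 60.9% in Polrmt and 61.8% in Esrra. With both trends removed the values were -0.32, 0.33 and 0.02. No symbols beginning with mt- were among the genes tested, and the messages that these ribosomes translate were not analysed here.

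Most cytosolic ribosomal protein genes were also below 0. Of 82 such genes, 22 were lower at an unadjusted p under 0.05, where 7.68% of all genes were. In all, 77 of the 82 were below 0, with a median of -0.37. Their median transcript was 834 bases long, against 1226 bases for the members and 2990 for all genes. With both trends removed their median was -0.08 beside -0.10 for the members. Rps24 had the smallest p, with -0.78 ± 0.24 (SE) and an edgeR adjusted p of 0.181, and Rpl41 was the most abundant per length, with -0.31 ± 0.27 (SE).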

How the data were processed

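The counts of 14602 genes in 6 naïve control and 5 laser treated libraries were deposited by the authors without normalization. The submitters' processing notes name bcl2fastq 2.18.0.12, Trim Galore, STAR 2.5.3a, featureCounts 1.5.3, StringTie 1.3.3 and edgeR 3.22.3, and the builds mm10 and GRCm38. Columns with the authors' own fold changes, abundances, F statistics, p-values and FDR were not used. The authors' StringTie transcripts, all of 1 exon, hold coverage, FPKM and TPM, and TPM were summed per gene for an alternative. The members and lists were chosen with earlier results of these data known.

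The test was edgeR 4.0.16 (R 4.3.3) with TMM, filterByExpr and robust quasi-likelihood estimation. The p-values were adjusted over the 14602 genes by Benjamini-Hochberg. It was tested on simulated data with changes larger than those of the members, so power for the members was not measured. The p-values set the difference between the groups against the spread between the libraries. Genes were placed on GRCm38 by GENCODE M21, and 97.6% were matched. Total counts ranged from 25700881 to 38755994. Each standard error is the absolute log2 fold change divided by the square root of the F statistic of edgeR's quasi-likelihood test. It thus reflects the spread between these libraries and not their depth alone. Named were, per subunit, the 5 genes with the smallest p, the 2 most positive, the 3 highest and 2 lowest per length, and also the Mrps18 paralogs, Mrps30, Mrps36, Mrpl43 and, of each other list, the gene with the smallest p and the most abundant one, a rule that left its scale open and was read as per length. Alternatives used DESeq2 1.42.0, limma 3.58.1 and the settings of the closing section.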

Additional observations from a re-analysis of the deposited data

Results flagged for a closer look

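Of 58 sets of values tested, the named members, sums and shares in each group, 3 held a library that stood far from the others of its group by Dixon's test at the 95% level, and chance flags about 5% of such sets. Mrpl43 was 29.8 CPM in laser treated replicate 4, where the other 4 laser treated libraries were 51.1 to 55.5 CPM. Mrps26 was 24.5 CPM in the same library, where the others were 37.7 to 43.0 CPM. Mrps18b was 3.94 CPM in laser treated replicate 5, where the others were 5.28 to 5.73 CPM.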

How the results depend on the processing

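The Mrpl and Mrps medians stayed below 0 under every alternative run. Removing the length trend brought them from -0.25 and -0.26 to -0.10 and -0.07. Both fits used the same 11 libraries, so the SD between libraries of 0.192 does not measure this move. No member passed the adjusted threshold in edgeR or limma under these alternatives, and DESeq2 called 3. The count of lower members was 24 with the replicate block and the GC trend removed, beside 6.25% of all genes. It was 7 with GC and length trends removed, beside 3.40%, and 2 within label R2, beside 3.28%. Leaving out 1 library gave 10 to 28, beside 5.94% to 9.71% of all genes. The count of higher members was 3 with voom and sample quality weights and 6 with the length trend removed, beside 9.55% of all genes in each. It was 0 with the GC trend removed, with or without the replicate block, and within either label. With log2(TPM + 1) or log2(TPM + 0.1) it was also 0. All-gene shares in the fits that gave 0 ran from 2.94% to 9.72%. Leaving out 1 library gave 1 to 2, beside 5.60% to 9.35% of all genes. With the length trend removed the split of calls was 11 lower and 6 higher in place of 15 and 1, beside 6.58% and 9.55% of all genes. Counted by place in the ribosome, small subunit genes held 35.6% ± 0.896 (SD, n = 6) and 34.1% ± 1.36 (SD, n = 5) of the sum, a difference larger than either SD, unlike that of the split by symbol, with 3 of 5 laser treated libraries below the control range. Leaving out 1 library gave Mrpl medians of -0.36 to -0.20 and Mrps medians of -0.31 to -0.17. The causes were not tested.

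Of 25 named members, 9 changed sign under some alternative, all with an adjusted p over 0.05. With the length trend removed the log2 fold change was 0.0187 for Mrpl27, 0.23 for Mrps18a, 0.0870 for Mrps18b and 0.0521 for Mrps36. With GC and length trends removed it was 0.00422 for Mrpl27, 0.0552 for Mrps18a, 0.0106 for Mrps18b and 0.19 for Mrps36. With log2(TPM + 1) it was 0.0920 for Mrpl19, 0.18 for Mrps18a, 0.41 for Mrps35 and 0.0507 for Mrpl43, and with log2(TPM + 0.1) 0.10, 0.18, 0.93 and 0.0508. Within R1 it was 0.0318 for Mrps6, 0.15 for Mrps18a and 0.24 for Mrps18b, and within R2 -0.0109 for Mrps26. For Mrps18a, leaving out 1 library gave -0.146 to 0.0544, the latter without laser treated replicate 4. TPM could not be fitted for 1 member, Mrps18c. Its TPM was above 0 in 3 of 11 libraries, with means of 6.07 in naïve control and 0 in laser treated libraries. Of the 15 members lower at an unadjusted p under 0.05, 14 could be fitted with TPM, and 13 kept their direction. The other was Mrpl30, not one of the 25 named, whose highest log2 fold change over the alternatives was 3.34. The TPM of Mrpl30 was above 0 in 7 of 11 libraries, with means of 6.65 in naïve control and 27.5 in laser treated libraries.

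Replicate numbers are shared by the groups for 5 numbers, but samples with the same number did not deviate together (correlations of -0.06, 0.10, 0.35, -0.05 and -0.05), so the numbers were not taken as pairs. With the replicate block 17 members were lower and 1 was higher at an unadjusted p under 0.05, beside 9.30% and 8.16% of all genes. The Mrpl and Mrps medians were both -0.31 in that fit. Of the 5 laser treated samples, 2 correlated best with their own number.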

Other observations

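Mrps2, named after its values were seen, had the largest spread relative to its mean of all members among the naïve control libraries. It ranged from 15.9 to 76.7 CPM there and from 29.6 to 41.2 CPM in the laser treated libraries. Its log2 fold change was -0.10 ± 0.30 (SE), with an adjusted p of 0.918 in edgeR's quasi-likelihood test.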
